A study of Homo sapiens with 8 samples.

Results

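Nuclear receptors are transcription factors that bind DNA through a pair of zinc fingers and, in most members, change partner proteins when a small lipophilic ligand enters their ligand-binding domain. The 45 receptors described here are the listed members of that family, found by symbol in the deposited table of 63677 genes. Each of the 45 symbols was found, in 51 rows. The 6 extra rows repeat RXRA and RXRB under other identifiers and hold 0 reads. Of the 45 receptors, 35 had at least 10 normalized reads in at least 4 of 8 libraries and were tested, and 10 did not reach that level.

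RNA was sequenced from LY2 cells, an endocrine-resistant breast cancer line. The cells carried either a non-targeting hairpin (shNT, 4 libraries) or a hairpin against NCOA1 (shSRC1, 4 libraries), kept under puromycin at 500 ng/mL. NCOA1 encodes SRC-1, a coactivator that liganded nuclear receptors recruit. What both groups share is a medium with stripped serum and 0.01 µM 4-hydroxytamoxifen, then 72 h of steroid depletion, and finally 8 h with 0.1 µM 4-hydroxytamoxifen, an estrogen receptor ligand that acts as an antagonist in breast cells. No library without 4-hydroxytamoxifen was analysed here. The labels do not say whether each hairpin line is a clone or a pool, nor whether replicates are separate cultures, so p-values reflect only how these libraries vary, which can be technical, and a difference between the hairpin lines that is not due to NCOA1 cannot be told apart from one that is.

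As background, receptors of the family fall into steroid receptors that bind DNA as homodimers, receptors that pair with a retinoid X receptor, and orphan receptors for which no ligand, or no physiological one, is settled. In breast epithelium the estrogen receptor drives growth and is the target of tamoxifen, and SRC-1 is one of several coactivators that carry its signal to the transcription machinery.

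The libraries held 33771775 to 67022036 reads assigned to genes, the fewest in shSRC1 replicate 2. NCOA1 stood at 4381, 4212, 4467 and 4525 normalized reads in shNT replicates 1 to 4 and at 1927, 1895, 2215 and 2107 in shSRC1 replicates 1 to 4, so the hairpin target was lower in each shSRC1 library. All 8 luminal breast epithelium markers of a list were measured, and KRT8, KRT18 and KRT19 among them rose (37.5% called, against 23.2% of all tested genes). The other 5 missed the threshold. Their log2 fold changes were -0.16 in EPCAM, -0.13 in ESR1, -0.07 in FOXA1, 0.11 in CDH1 and 0.19 in GATA3. Length and GC correction called 3 of the 8 higher and 2 lower, where it called 29.1% of all tested genes. Of 5 measured basal markers 1 rose, which is 20.0%, near the 23.2% of all tested genes. It was TP63, which went from 44.9 to 64.9 normalized reads in shNT to 98.0 to 134.8 in shSRC1 (log2 fold change 1.05, limma adjusted p = 0.00113). The leukocyte genes PTPRC, CD3E and CD2 stayed under 10 normalized reads in every library, while LYZ reached 52.0 and CD4 13.9. The endothelial gene PECAM1 was at 0 in all libraries, VWF stood between 192.7 and 281.0, and KDR, which was not tested, held 2.67 to 5.57 in shNT and 6.65 to 29.7 in shSRC1. The summed level of 8 luminal markers ran from 340043 to 416533 in shNT and from 513845 to 583254 in shSRC1. KRT8 had the largest means within that sum, 132214 in shNT and 210603 in shSRC1, so the sum does not describe the luminal markers as a set. For 8 fibroblast markers the sum ran from 1635 to 2189 and from 1452 to 1978. The sums were 632 to 706 and 722 to 836 for basal, 42.6 to 95.6 and 31.3 to 75.1 for leukocyte, and 256 to 292 and 240 to 299 for endothelial markers. The part of these differences in the receptor values was not tested. All libraries come from the LY2 line, so the lists describe marker genes and are no count of other cell types. In bulk RNA, fewer cells that express a marker and less of its RNA per cell cannot be told apart.

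The 4 receptors whose levels differed between the groups past the threshold were NR2F2 and RARA, both higher in shSRC1, and NR4A1 and NR2C1, both lower. The test was limma on log2(value + 1), with p-values Benjamini-Hochberg adjusted over all 19559 tested genes and a threshold of 0.05. Of the 35 measured receptors, 11.4% were called, where 23.2% of all tested genes were. In the separate directions, 2 receptors were higher against 12.0% of all genes, and 2 were lower against 11.2%. The groups did not overlap in 9 receptors, or 25.7%, against 29.0% of all genes. The median absolute log2 fold change was 0.17 in the receptors and 0.24 over all tested genes.

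The sequences below are shown for these 4 receptors because they are the members whose RNA differed. They are RefSeq windows before the 5′-most listed transcript start, on build GRCh38.p14, written 5′ to 3′ on the gene's strand. Bases annotated as untranslated region are left out. Capitals mark matches, on either strand, to the nuclear receptor hexamer AGGTCA, the cyclic AMP element core TGACGT, the E-box CACGTG and the GC box GGGCGG.
NR2F2: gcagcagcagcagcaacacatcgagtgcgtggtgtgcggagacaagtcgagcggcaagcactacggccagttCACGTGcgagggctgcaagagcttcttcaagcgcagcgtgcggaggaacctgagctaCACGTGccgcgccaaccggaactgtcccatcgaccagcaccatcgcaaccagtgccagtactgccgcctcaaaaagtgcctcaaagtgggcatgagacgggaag
NR4A1: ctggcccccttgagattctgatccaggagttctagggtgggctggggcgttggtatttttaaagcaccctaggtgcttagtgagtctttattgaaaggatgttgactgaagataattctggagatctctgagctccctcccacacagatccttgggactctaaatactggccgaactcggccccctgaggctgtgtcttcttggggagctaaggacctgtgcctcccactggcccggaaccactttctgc
RARA: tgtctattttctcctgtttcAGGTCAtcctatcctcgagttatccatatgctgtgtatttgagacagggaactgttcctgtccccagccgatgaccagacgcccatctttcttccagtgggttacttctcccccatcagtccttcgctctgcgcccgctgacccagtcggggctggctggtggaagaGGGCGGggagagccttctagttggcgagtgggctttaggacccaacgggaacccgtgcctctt
NR2C1: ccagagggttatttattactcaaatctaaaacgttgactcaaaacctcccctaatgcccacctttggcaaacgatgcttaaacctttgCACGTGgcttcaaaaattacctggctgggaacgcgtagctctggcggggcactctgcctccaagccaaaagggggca

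The NR2F2 stretch is chr15:96332315-96332547 on the plus strand. All of its 233 bases are coding sequence of NR2F2 in GENCODE 29, so the start behind it is internal to the gene, and the stretch encodes part of the zinc-finger DNA-binding domain. The NR4A1 window, chr12:52022582-52022831 on the plus strand, and the RARA window, chr17:40308930-40309179 on the plus strand, overlap no gene in GENCODE 29. The NR2C1 window, chr12:95073704-95073868 on the minus strand, ends 85 bases short of its listed start. Those 85 bases hold 1 match to TGACGT, which is therefore not shown. The RefSeq entries used here held 2 starts for NR2F2, 2 for NR4A1, 3 for RARA and 1 for NR2C1. They need not include every start of a gene, so a window shown need not lie before its main promoter. Gene-level reads do not say which start was used.

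AGGTCA is the hexamer that many receptors of the family bind. It matched once in the RARA window and in none of the other 3 shown. Over the 250 bases before every listed start, 12.1% of 34943 windows held it, against 14 of 94 windows (14.9%) of the 40 receptors with an entry. The 8-letter element AAAGGTCA, bound by NR4A receptors and containing the hexamer, was in 1.04% of all windows and in windows of PPARG and ESRRG. TGACGT, a core of the cyclic AMP response element, was in 7.09% of all windows and 6.38% of receptor windows, CACGTG in 6.32% and 6.38%, and GGGCGG in 42.5% and 48.9%. A match describes letters in a window and is no evidence of binding.

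NR2F2 encodes COUP-TFII, an orphan receptor of the COUP-TF branch known from venous and mesenchymal development. It stood at 46.4, 34.7, 35.3 and 27.8 normalized reads in shNT replicates 1 to 4 and at 244.9, 202.9, 230.8 and 264.8 in shSRC1 replicates 1 to 4. Every shSRC1 library lay above every shNT library by a wide margin. The means were 36.0 ± 7.7 and 235.9 ± 26.0 (SD, n = 4 each), a ratio of 6.55. On the log2 scale NR2F2 was higher by 2.69 (SE 0.18), with a 95% confidence interval of 2.30 to 3.08 and a limma adjusted p of 1.45e-07. It rests on 158 reads in shNT and 917 in shSRC1. The exact two-sided permutation p was 0.0286, which is as small as 4 against 4 allows. Only 0.148% of tested genes had a larger rise, and NR2F2 was the only measured receptor with an absolute log2 fold change of at least 1, which 4.45% of all tested genes reached.

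NR2F6, which encodes the COUP-TF relative EAR2, held 4910, 5261, 3792 and 5630 normalized reads in shNT and 5759, 4895, 4693 and 4281 in shSRC1, with wide overlap. Its log2 fold change was 0.01, with a 95% confidence interval from -0.25 to 0.27 (limma adjusted p = 0.963). NR2F1, which encodes COUP-TFI, had 11 reads in shNT and 17 in shSRC1 and was not tested. The 20 nearest tested genes around NR2F2 on chromosome 15 had a median log2 fold change of -0.11, with 1 higher and 5 lower.

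NR4A1 encodes NUR77, an immediate early receptor that mitogens and stress induce within the hour. It stood at 2949, 2481, 2319 and 1905 normalized reads in shNT and at 1391, 1596, 1241 and 1291 in shSRC1. The lowest shNT library, replicate 4, lay above the highest shSRC1 library, replicate 2. The means were 2414 ± 431 and 1380 ± 157 (SD, n = 4 each), so NR4A1 kept 57.2% of its shNT level. The difference on the log2 scale was -0.80 (SE 0.12), with a 95% confidence interval from -1.05 to -0.54 (limma adjusted p = 3.91e-04, exact permutation p = 0.0286). NR4A1 shares 754 exonic bases with AC025259.3, a non-coding gene on the opposite strand, which had a mean of 67.9 normalized reads over all libraries and a log2 fold change of -1.56 (limma adjusted p = 8.18e-04). Whether the counting used strand is not given in the labels, so reads of the overlapping stretch cannot be told apart. Around NR4A1 on chromosome 12, the 20 nearest tested genes had a median log2 fold change of 0.14, with 7 higher and 1 lower.

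The other NR4A receptors bind the same DNA element. NR4A2, which encodes NURR1, held 816.6, 778.4, 841.1 and 773.3 normalized reads in shNT and 722.5, 727.8, 818.8 and 746.9 in shSRC1, so the groups overlapped. Its log2 fold change was -0.09 (95% confidence interval -0.28 to 0.10, limma adjusted p = 0.470). NR4A3, which encodes NOR1, held 32.5, 38.2, 35.3 and 35.0 in shNT and 44.6, 45.5, 56.3 and 66.9 in shSRC1. Its groups did not overlap, but its difference of 0.57 on the log2 scale (SE 0.22) missed the threshold (limma adjusted p = 0.0698). The differences between the 3 NR4A genes were not tested.

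RARA encodes retinoic acid receptor alpha, which pairs with a retinoid X receptor and is itself an estrogen receptor target in breast cells. It stood at 6761, 6333, 6075 and 6188 normalized reads in shNT and at 9045, 7561, 7406 and 6809 in shSRC1. The groups were separated by a narrow gap between shSRC1 replicate 4 and shNT replicate 1. The means were 6340 ± 300 and 7705 ± 950 (SD, n = 4 each), a ratio of 1.22. RARA was higher by 0.27 on the log2 scale (SE 0.09), with a 95% confidence interval from 0.08 to 0.47 and a limma adjusted p of 0.0418. RARA-AS1 on the opposite strand shares 556 exonic bases with it and had a mean of 29.6 normalized reads. The call was lost without shNT replicates 1, 2 or 4 (adjusted p = 0.0542, 0.0629 and 0.0915), without shSRC1 replicates 1, 2 or 3 (0.1, 0.0823 and 0.0690), with both shNT replicate 3 and shSRC1 replicate 2 left out (0.0714) and with no filter on low values (0.0594). It was kept in 12 of 20 alternatives, with adjusted p between 0.00279 and 0.1 over all of them. Leaving out shSRC1 replicate 1, its highest library, gave a log2 fold change of 0.20. The 20 nearest tested genes around RARA on chromosome 17 had a median log2 fold change of 0.14, with 3 higher and 2 lower.

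NR2C1 encodes TR2, an orphan receptor that can act as a repressor together with TR4. It stood at 1464, 1478, 1598 and 1458 normalized reads in shNT and at 1058, 1130, 1277 and 1365 in shSRC1, with no overlap. The means were 1499 ± 66 and 1208 ± 139 (SD, n = 4 each), and NR2C1 fell by 0.32 on the log2 scale (SE 0.09, limma adjusted p = 0.0248, exact permutation p = 0.0286). The call was lost without shSRC1 replicate 1 (adjusted p = 0.0679), without shSRC1 replicate 2 (0.0745), without that library and shNT replicate 3 together (0.0837) and with no filter on low values (0.0537). It was kept in 16 of 20 alternatives. Under a correction of every library for length and GC of transcripts, the log2 fold change was -0.19 (limma adjusted p = 0.0290). NR2C1 lies on chromosome 12 among lower genes, since 7 of its 20 nearest tested neighbours were lower and 0 higher, with a median log2 fold change of -0.17. NR2C2, which encodes TR4, stood at 2377 ± 175 and 2222 ± 112 (n = 4 each, limma adjusted p = 0.408).

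**Figure D1:**
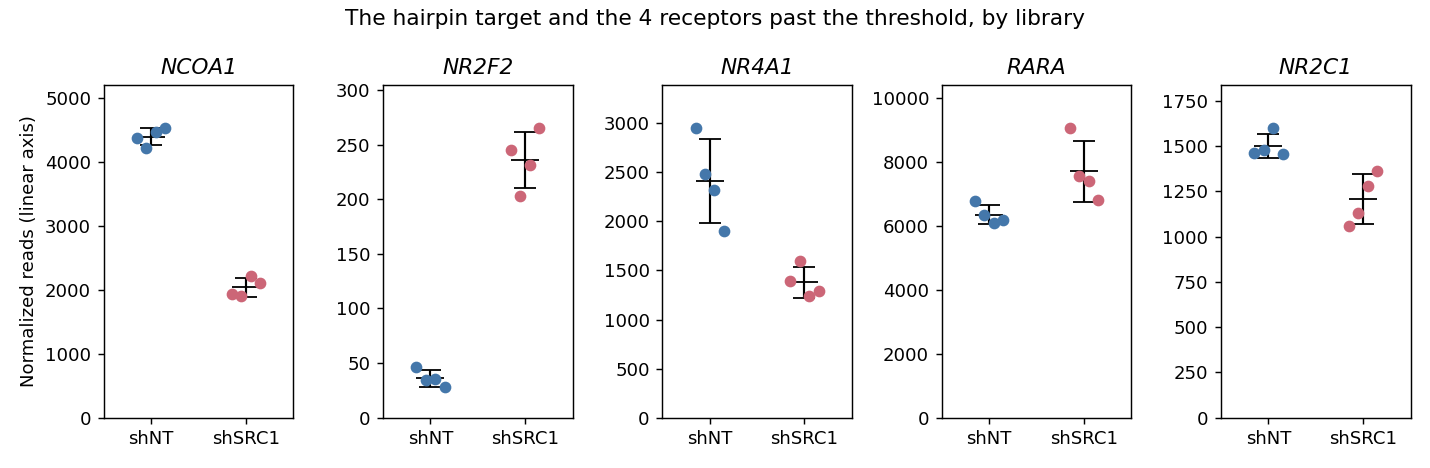
Normalized reads (linear axes from 0) of NCOA1 and the 4 called receptors in 4 shNT and 4 shSRC1 libraries; points are libraries and bars are mean and SD. NR2F2 stood at 27.8 to 46.4 in shNT and 202.9 to 264.8 in shSRC1, while the RARA groups are separated only by the gap between 6761 and 6809.

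Without shSRC1 replicate 2, the receptors called were 1 higher and 1 lower, NR2F2 and NR4A1. The count of higher receptors was also 1 without shNT replicate 1, 2 or 4 or without shSRC1 replicate 3, and the count of lower receptors was also 1 without shSRC1 replicate 1. NR2F2 and NR4A1 passed the threshold in each of the 20 alternatives. In NR2F2 the limma, edgeR or DESeq2 adjusted p ran up to 4.77e-05, and in NR4A1 up to 0.00329.

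**Figure D2:**
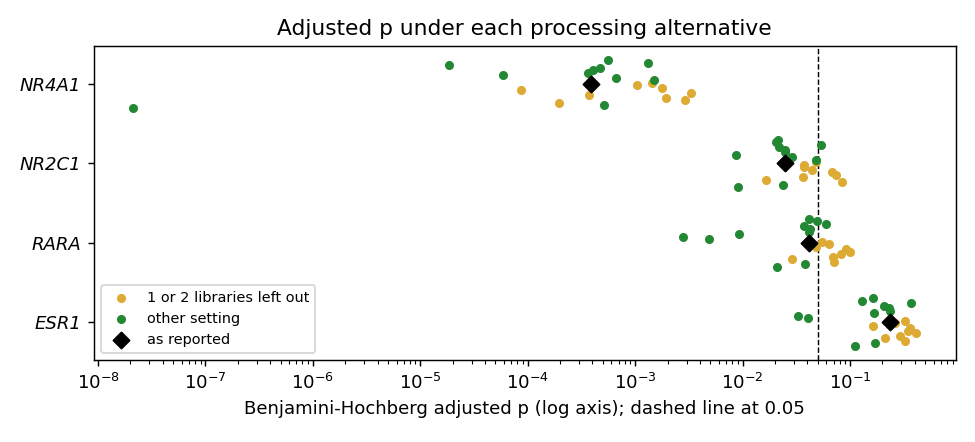
Adjusted p (log axis) of NR4A1, NR2C1, RARA and ESR1 under each of 20 alternatives, with the reported value as a diamond and the threshold of 0.05 as a dashed line. NR4A1 stays left of the line throughout, with a highest value of 0.00329, while RARA lies on both sides, from 0.00279 to 0.1.

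The estrogen receptor gene itself was not among the calls. ESR1, which encodes the receptor that tamoxifen binds, stood at 20324, 20050, 20796 and 20718 normalized reads in shNT and at 17779, 18097, 19250 and 19784 in shSRC1. Each shSRC1 library was lower than each shNT library, and the difference was -0.13 on the log2 scale (SE 0.08), with a 95% confidence interval from -0.29 to 0.04 (limma adjusted p = 0.233). With length and GC correction it was -0.16 with a limma adjusted p of 0.0329. Around ESR1 on chromosome 6, the 20 nearest tested genes had a median log2 fold change of -0.14, with 2 higher and 3 lower. ESR2, which encodes estrogen receptor beta, stood at 70.4 ± 22.8 and 69.0 ± 10.3 (n = 4 each), and shares 523 exonic bases with AL161756.1 on the same strand.

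The estrogen-related receptors bind the same kind of DNA element without an estrogen ligand. ESRRA, a regulator of mitochondrial genes, stood at 3969 ± 478 and 4101 ± 370 (n = 4 each, log2 fold change 0.05, limma adjusted p = 0.734). Its shNT replicate 3 held 3258, against 4155 to 4291 in the other shNT libraries. ESRRB stood at 8.40 ± 4.06 and 14.8 ± 2.5, on 37 and 58 reads, with a log2 difference of 0.83 (SE 0.39) whose 95% confidence interval ran up to 1.65 (limma adjusted p = 0.131). ESRRG had 13 reads in each group and was not tested.

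PGR, the progesterone receptor gene and a classical estrogen-induced gene, held 54.8, 74.6, 98.4 and 71.8 normalized reads in shNT and 57.0, 119.0, 106.3 and 108.1 in shSRC1, so the groups overlapped (log2 fold change 0.35, SE 0.24, limma adjusted p = 0.298). NR3C1, the glucocorticoid receptor gene, stood at 6044 ± 300 and 6326 ± 732, and NR3C2, the mineralocorticoid receptor gene, at 19.8 ± 6.4 and 18.0 ± 9.1 (n = 4 each). The 95% confidence interval of the log2 fold change was -0.13 to 0.25 for NR3C1 and -0.96 to 0.61 for NR3C2, which had 87 and 62 reads.

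Among retinoid receptors other than RARA, RARG stood at 6265 ± 416 and 5903 ± 672 and its log2 fold change of -0.09 missed the threshold (limma adjusted p = 0.492). RARB, often silent in breast cancer lines, stood at 27.5 ± 9.3 and 25.9 ± 5.5. The retinoid X receptors are the shared partners of many family members. RXRA stood at 6805 ± 528 and 7125 ± 664 and RXRB at 2202 ± 205 and 2471 ± 179, with log2 fold changes of 0.07 and 0.17 (limma adjusted p = 0.617 and 0.181). RXRG had 3 reads in shNT and 4 in shSRC1. So 2 of the 3 retinoid X receptor genes were measured.

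The thyroid hormone receptor genes THRA and THRB differed by 0.26 and 0.18 on the log2 scale, each missing the threshold (limma adjusted p = 0.0649 and 0.135). THRA passed it with upper-quartile scaling (adjusted p = 0.0441), in DESeq2 (0.0465) and with length and GC correction (0.0283), and THRB with that correction (0.0165). THRA held 837, 797, 661 and 816.4 normalized reads in shNT and 980.7, 885.3, 906.0 and 937.5 in shSRC1, so its groups did not overlap. THRA shares 263 exonic bases with NR1D1, the REV-ERB alpha gene on the opposite strand, which had a log2 fold change of -0.15 (limma adjusted p = 0.505). VDR, the vitamin D receptor gene, stood at 7372 ± 265 and 7013 ± 394 (n = 4 each), which is a difference of -0.07 on the log2 scale (95% confidence interval -0.24 to 0.09, limma adjusted p = 0.506).

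The PPARs bind fatty acids and govern lipid use. PPARA held 738.7, 678.8, 687.0 and 715.9 normalized reads in shNT and 770.9, 806.5, 811.5 and 816.5 in shSRC1, with no overlap but a limma adjusted p of 0.124. PPARG differed by 0.43 on the log2 scale and PPARD by 0.05 (limma adjusted p = 0.0947 and 0.758). Its groups overlapped through shSRC1 replicate 1, which held 95.9 against 124.5 to 156.7 in the other shSRC1 libraries, and without that library PPARG passed the threshold (log2 fold change 0.57, limma adjusted p = 0.0355).

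Clock receptors repress (REV-ERBs) or activate (RORs) ARNTL, a core clock gene. NR1D2, the REV-ERB beta gene, stood at 3063 ± 217 and 2680 ± 340, and NR1D1 at 279 ± 38 and 254 ± 47 (n = 4 each, limma adjusted p = 0.149 and 0.505). RORA stood at 106 ± 36 and 94.2 ± 13.5, and RORB had 2 reads in shNT and 0 in shSRC1.

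Receptors for sterols, bile acids and foreign compounds were uneven in level. NR1H2, the LXR beta gene, differed by 0.23 on the log2 scale (SE 0.11; limma adjusted p = 0.126) and had groups that did not overlap, and NR1H3, the LXR alpha gene, one of 0.03. NR1I3, the CAR gene, stood at 149 ± 20 and 136 ± 13 (n = 4 each), but shares 661 exonic bases with TOMM40L on the opposite strand, a gene with a mean of 1777 normalized reads that was itself higher (log2 fold change 0.34, limma adjusted p = 0.0288). The bile acid receptor gene NR1H4 had 1 read in each group, and the pregnane X receptor gene NR1I2 had 0 in shNT and 3 in shSRC1.

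HNF4G, related to a liver receptor, stood at 67.4 ± 6.9 and 86.8 ± 17.5 (n = 4 each, limma adjusted p = 0.196), while HNF4A, the gene of that liver receptor, had 0 reads in shNT and 1 in shSRC1. NR2E3, a photoreceptor gene, stood at 37.5 ± 13.7 and 36.4 ± 10.1. NR5A2, the LRH-1 gene, had a log2 fold change of -0.19 (limma adjusted p = 0.315) and NR6A1, the germ cell factor gene, one of 0.18 (limma adjusted p = 0.365). NR5A1, the SF-1 gene of steroid-producing tissue, had 8 reads in each group, and the atypical receptor genes NR0B1 and NR0B2, which lack the DNA-binding domain, had 0 and 1 in shNT and 2 and 3 in shSRC1. The highest normalized value in any library among the 10 untested receptors was 10.5, for NR2F1 in shSRC1 replicate 2. A count of 0 in a library allows up to 3 reads, or 2.67 to 5.25 normalized reads, for counting error only.

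By GENCODE 29, 18 of the measured receptors share exonic bases with another gene, 14 of them with one on the opposite strand. Of the 31 receptors that missed the threshold, 6 had an unadjusted limma p under 0.05, namely ESRRB, THRA, PPARA, PPARG, NR1H2 and NR4A3. The share of all tested genes at that looser cut is not given here, so the count is no result about the receptors. The 95% confidence interval of the log2 fold change lay within 0.3 of 0 in 11 of the 31, within 0.5 in 21 and within 1 in 29. It was widest for ESRRB and narrowest for ESR1. The spread between libraries followed the level. The 16 receptors with a shNT mean over 1000 had a median coefficient of variation of 6.8% in shNT. For 9 receptors with a mean under 100 it was 24.0%. That leaves out NR2E3 (37.5 ± 13.7 in shNT), whose exon length was not known.

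**Figure D3:**
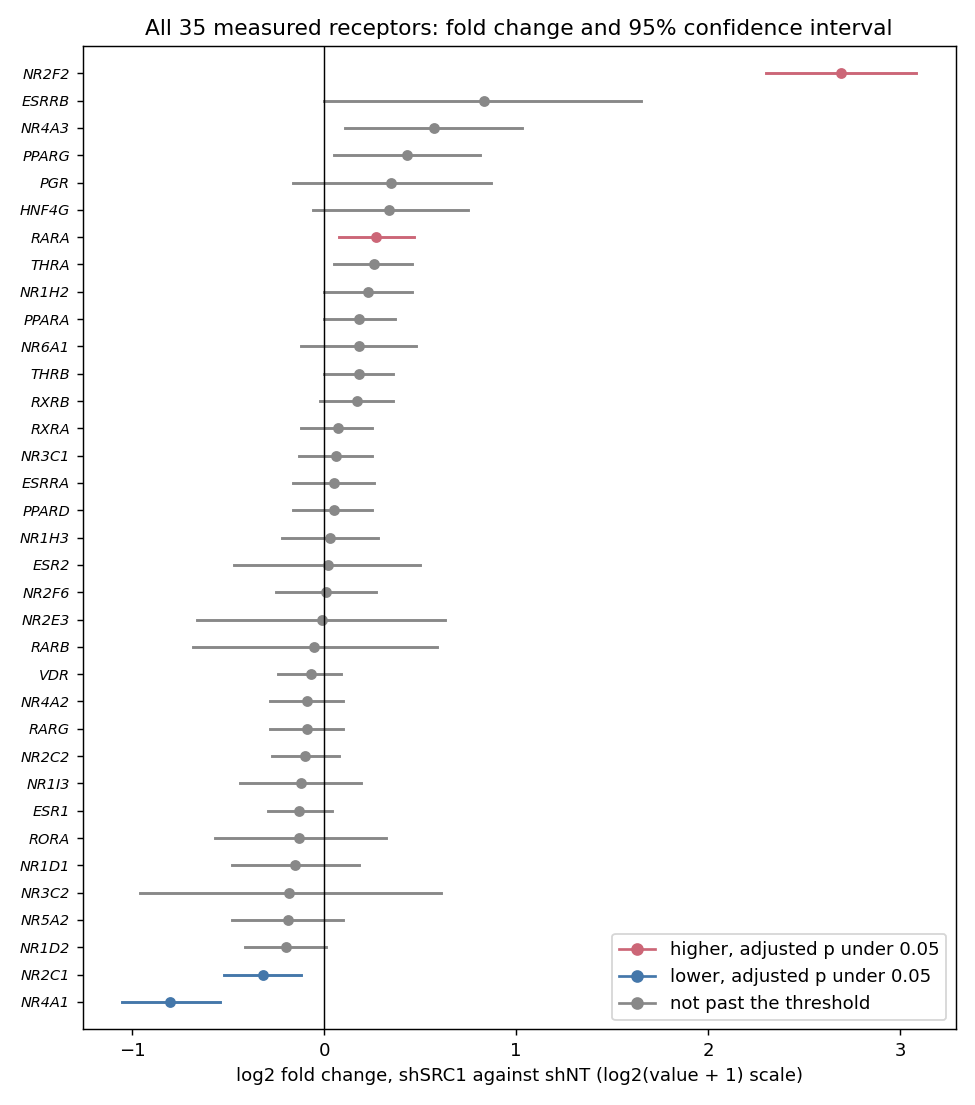
Log2 fold change of shSRC1 against shNT on the log2(value + 1) scale (points) with 95% confidence intervals (lines) for the 35 measured receptors. NR2F2 at 2.69 stands apart from all others, which run from -0.80 for NR4A1 to 0.83 for ESRRB.

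Levels were compared between receptors as normalized reads per kilobase of merged exons, for the 34 measured receptors whose identifier was in GENCODE 29 (NR2E3 was not). Merged exons pool every annotated transcript of a gene, so this length can exceed that of the transcripts present. A level per kilobase can then be too low, by an amount that differs between genes and was not measured. On that scale 6 receptors stood at 1000 or more in each group. These were NR2F6 with 1830 ± 297 in shNT and 1834 ± 233 in shSRC1, RARA with 1340 ± 63 and 1629 ± 201, ESR1 with 1478 ± 25 and 1352 ± 68, ESRRA with 1310 ± 158 and 1354 ± 122, VDR with 1299 ± 47 and 1236 ± 69, and RARG with 1222 ± 81 and 1151 ± 131 (SD, n = 4 each). Neighbours in this order overlapped when all 8 libraries were pooled. Within the groups ESR1 and RARA did not overlap and changed places on this scale. Their order in each group depends on the merged lengths, 13854 bases for ESR1 and 4731 for RARA. In shNT, ESR1 ran from 1447 to 1501 and RARA from 1284 to 1429, while in shSRC1 RARA ran from 1439 to 1912 and ESR1 from 1283 to 1428. The 6 receptors were separated from NR1H2, the next receptor, by a gap without overlap. Together these 6 made up 62.0% of the summed level of the 34 receptors in shNT and 61.9% in shSRC1.

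Below them, NR1H2, NR3C1, RXRA, RXRB, NR1D2 and PPARD formed an overlapping run from 785 to 489 per kilobase over all libraries. At the bottom, 8 receptors in shNT and 7 in shSRC1 stood under 10 per kilobase, among them ESR2, RARB, RORA, PGR and NR3C2 in both. NR2F2 moved from the 31st place in shNT, at 5.58 ± 1.19, to the 24th in shSRC1, at 36.5 ± 4.0 per kilobase. NR4A1 went from 331 ± 59 to 189 ± 21, and ranked 13th and 14th. NR2F2 in shSRC1 was still far below NR2F6, the COUP-TF gene with the highest level.

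**Figure D4:**
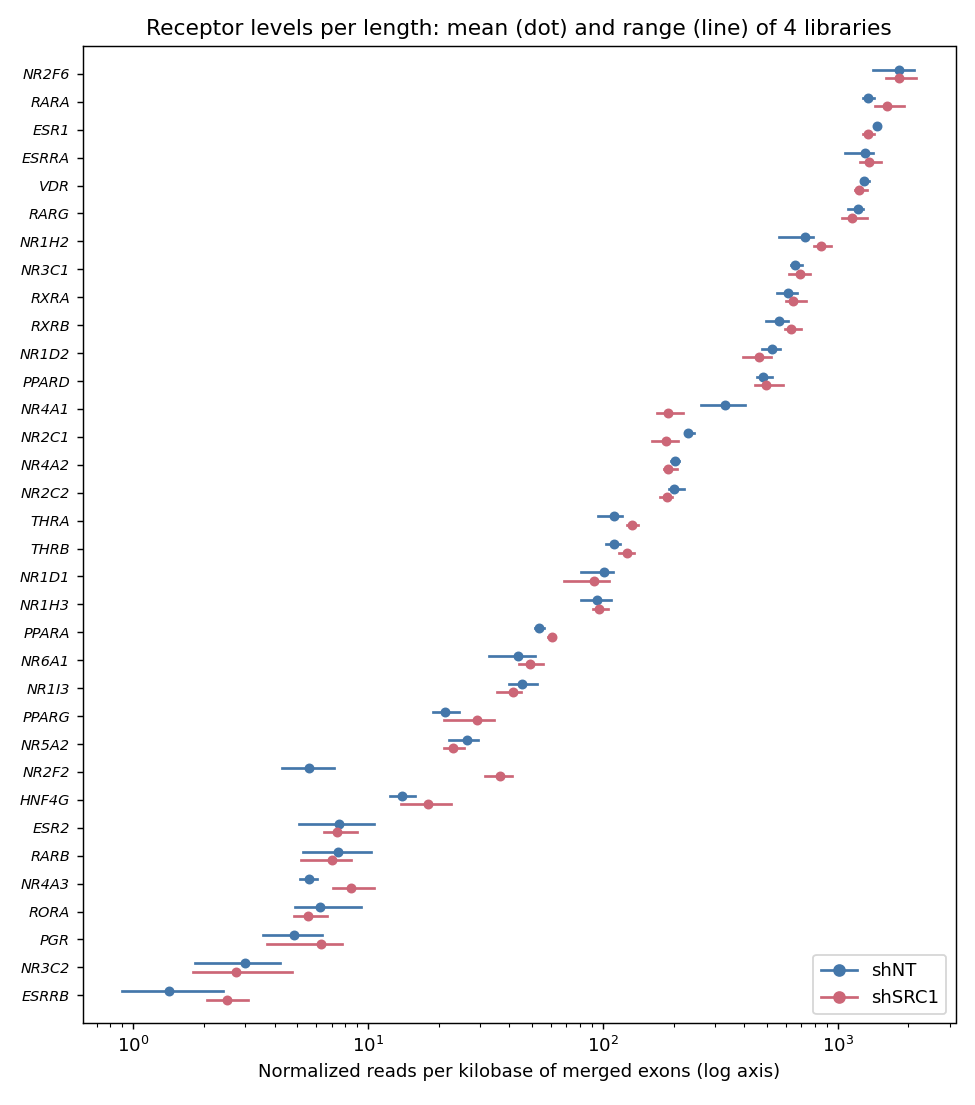
Normalized reads per kilobase of merged exons (log axis) for 34 receptors, as mean (dot) and range (line) of 4 libraries in shNT and shSRC1. Levels run from 1834 for NR2F6 in shSRC1 down to 1.42 for ESRRB in shNT, and the clearest gap between the groups is that of NR2F2.

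Within the shSRC1 group, receptors were most often highest in replicate 1. Of 25 receptors with a shNT mean of at least 100, 13 were highest of the shSRC1 group in replicate 1 and 9 were lowest there. In the shNT group, 8 were highest and 9 lowest in replicate 3, and 8 were highest and 6 lowest in replicate 1. Whether these counts exceed an even spread was not tested. Across 18787 genes, which are not independent replicates, Spearman's rho between a library's deviation from the gene mean and transcript GC content was 0.18, -0.09, -0.22 and -0.21 in shNT replicates 1 to 4 and 0.48, 0.19, -0.10 and -0.22 in shSRC1 replicates 1 to 4. RARA, with 63.0% GC in its longest transcript, was highest of its group in shSRC1 replicate 1 and lowest in shNT replicate 3. With length and GC correction its log2 fold change was 0.26 with a limma adjusted p of 0.00279. That correction called 9 receptors in place of 4, adding ESR1, NR3C1, THRA, THRB and HNF4G, of which ESR1 was lower. Over all tested genes it also called more, 29.1% in place of 23.2%, so the larger count is not particular to the receptors.

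Coregulators, ligand enzymes and receptor targets were described by lists of genes chosen with earlier results of these data known, and are given as counts with no test of the list. Among the 23 coregulators there were 3 that rose, 4 that fell and 16 that missed the threshold, with a median log2 fold change of -0.02 against 0.00 over all genes. That is 30.4% called, where 23.2% of all tested genes were (12.0% higher and 11.2% lower). Besides NCOA1 (log2 fold change -1.11, SE 0.08), PPARGC1A, which encodes a coactivator of ESRRA and PPARs, rose from 213.8 ± 26.5 to 345.2 ± 51.9 normalized reads (SD over 4 libraries, limma adjusted p = 0.00293). TBL1X, a corepressor complex subunit, rose from 8975 ± 323 to 11122 ± 871 (limma adjusted p = 0.0140), in a stretch of chromosome X where the nearest genes had a median log2 fold change of 0.31. NCOA2, which encodes SRC-2, differed by -0.03 on the log2 scale (limma adjusted p = 0.793). The SRC-3 gene NCOA3 held 78065 ± 2351 normalized reads in shNT and 66131 ± 4094 in shSRC1, a difference of -0.24 on that scale (limma adjusted p = 0.0548), with groups that did not overlap. NCOA3 passed the threshold in 9 of 20 alternatives, with adjusted p down to 0.00355. Without any one of shNT replicates 1 or 4 or shSRC1 replicates 1, 2, 3 or 4, 2 coregulators were lower in place of 4.

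Of 18 measured ligand-making and ligand-clearing enzymes, 2 rose and 6 fell, which is 44.4% against 23.2% of all tested genes. Among genes for enzymes that make retinoic acid, ALDH1A3 held 320.1, 392.7, 244.2 and 375.0 normalized reads in shNT and 158.5, 180.2, 149.9 and 152.1 in shSRC1, and fell by 1.03 (SE 0.15, limma adjusted p = 3.04e-04) on the log2 scale. ALDH1A2 fell from 47.1 ± 9.4 to 25.9 ± 4.7 (limma adjusted p = 0.0251). ALDH1A1, of the same class, had too few reads to be tested, with 0 to 3.59 normalized reads in shNT and 8.18 to 22.7 in shSRC1. RDH10, which makes the retinaldehyde these enzymes use, rose by 0.27 (limma adjusted p = 0.0458). CYP26B1, which encodes an enzyme that breaks retinoic acid down, held 97.4, 83.5, 80.8 and 55.6 in shNT and 263.0, 269.4, 275.3 and 241.0 in shSRC1. Its log2 fold change was 1.74 (SE 0.17, limma adjusted p = 6.15e-06) and it passed the threshold in each of 20 alternatives. The steroid-reducing enzymes AKR1C2 and AKR1C3 fell by 3.01 and 2.44 on the log2 scale, and can share reads with each other and with AKR1C1. AKR1C1 itself fell by 2.13 (limma adjusted p = 0.00301). CYP19A1, the aromatase gene, fell by 0.98 with groups that did not overlap, from 250.2 ± 107.7 to 118.4 ± 6.8 normalized reads (limma adjusted p = 0.00749). Only 1 enzyme gene was higher, in place of 2, without shNT replicate 1, 3 or 4 or without shSRC1 replicate 2, 3 or 4.

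CYP26B1 is also a classical retinoic acid receptor target. Of 7 measured genes of that list, 3 rose and 4 did not pass the test (42.9% called, against 23.2% of all tested genes), with a median log2 fold change of 0.43. TGM2, a transglutaminase gene, held 38.0, 37.3, 18.6 and 37.7 normalized reads in shNT and 89.2, 94.5, 121.8 and 88.0 in shSRC1 (log2 fold change 1.59, limma adjusted p = 4.41e-04). BTG2, an antiproliferative gene that p53 also induces, rose from 1187 ± 107 to 2139 ± 125 (limma adjusted p = 1.33e-05). Targets that missed the threshold included CRABP2, DHRS3 and CYP26A1, with log2 fold changes of -0.23, 0.22 and 0.43 and limma adjusted p from 0.134 to 0.494. Without shNT replicate 3, 1 gene of this list was lower in place of 0.

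Of 18 measured estrogen receptor targets, 10 rose and 1 fell, or 61.1% against 23.2% of all tested genes. The largest rise was that of KRT13 (log2 fold change 1.99, limma adjusted p = 6.98e-09), with PDZK1 and BCL2 both at 1.61. CTSD was the gene that fell (log2 fold change -0.60, limma adjusted p = 0.00124). The other 7 missed the threshold. Their log2 fold changes were 0.02 in GREB1, 0.14 in TFF1, 0.16 in SIAH2, 0.26 in IGFBP4, -0.11 in EGR3, -0.21 in CA12 and -0.40 in TFF3. That list was drawn up with results of these libraries known, so its count is no independent evidence of a direction. Without shNT replicate 3, 3 were lower in place of 1. Of 11 measured targets of the glucocorticoid and progesterone receptors, 3 rose and 2 fell (45.5%, against 23.2% of all tested genes), and with no filter 2 rose and 0 fell. SGK1, a kinase gene, rose from 74.1 ± 8.6 to 143 ± 17, TSC22D3, which encodes GILZ, rose from 3821 ± 549 to 5745 ± 292, and FKBP5, a chaperone that dampens the glucocorticoid receptor, fell from 3168 ± 48 to 2642 ± 132 (n = 4 each, limma adjusted p = 0.00107, 9.44e-04 and 0.0199). The count of lower genes in this list was 0 without shNT replicate 4 or shSRC1 replicate 2, and 1 without shNT replicate 1 or 2 or shSRC1 replicate 4.

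Of 14 measured clock genes, ARNTL rose (log2 fold change 0.32, limma adjusted p = 0.0203) and PER2 and PER3 fell by 0.35 and 0.22 on the log2 scale. Among clock genes 21.4% were called, against 23.2% of all tested genes. PER2 passed the threshold in each of 20 alternatives, ARNTL in 16 and PER3 in 12. ARNTL was lost without shNT replicate 1, without shSRC1 replicate 2 or 4 and with no filter. The count of higher clock genes was 0 without those libraries and 2 without shNT replicate 2, and the count of lower ones was 1 without shNT replicate 1 or 4 or any single shSRC1 replicate. Of 12 targets of estrogen-related receptors, ATP5B and NDUFA4, a mitochondrial ATP synthase gene and a respiratory chain gene, were higher by 0.41 and 0.36 on the log2 scale, and 0 genes fell. The share called was 16.7%. That count of 2 was 1 in edgeR, 4 with upper-quartile scaling, 1 without shNT replicate 1 or without any single shSRC1 replicate, and 4 without shNT replicate 2.

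Of 10 measured PPAR targets, UCP2 and ACADVL rose, by 0.54 and 0.26 on the log2 scale, and CPT1A fell by 0.27. That is 3 of 10, near the 23.2% of all tested genes. UCP2, a mitochondrial carrier gene, passed the threshold in 20 of 20 alternatives, ACADVL in 14 and CPT1A in 16. The count of higher genes was 1 without shNT replicate 1 or 4 or shSRC1 replicate 1, 3 or 4. The count of lower ones was 0 without shNT replicate 1 or shSRC1 replicate 2 or 3, and 2 without shNT replicate 3. Of 8 measured LXR and FXR targets, SREBF1, the lipogenic regulator, rose by 0.51 in a stretch of chromosome 17 whose nearest genes had a median of 0.42, and SLC51A, a bile acid and steroid transporter gene, fell by 0.57, a share of 25.0%. Without shNT replicate 3, 3 genes of this list were lower in place of 1. Of 4 measured vitamin D receptor targets and 2 measured PXR and CAR targets, 0 passed the threshold in limma, edgeR or DESeq2. CYP24A1, the vitamin D target with the lowest p, differed by 0.32 on the log2 scale (limma adjusted p = 0.0661). At an unadjusted limma p under 0.05, 1 vitamin D target (CYP24A1) and 0 PXR and CAR targets passed. With length and GC correction 1 was lower. Without shSRC1 replicate 1, 1 vitamin D target was higher, and without shNT replicate 2, 1 PXR and CAR target was lower.

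**Figure D5:**
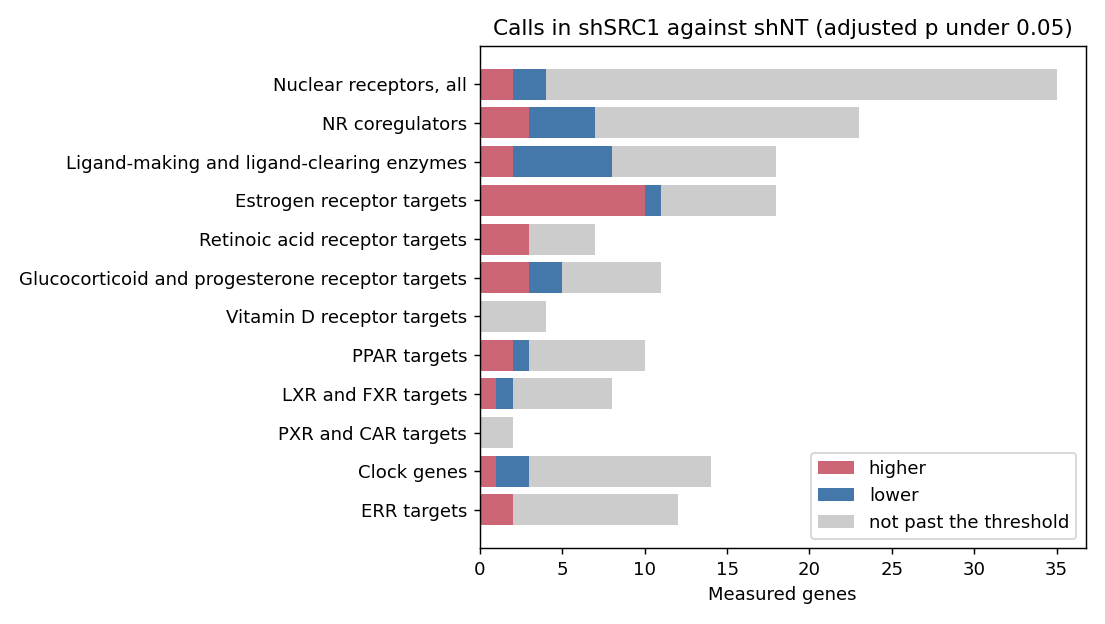
Number of measured genes (linear axis from 0) called higher, called lower or not past the threshold in shSRC1 against shNT, for the receptors and 11 lists of coregulators, ligand enzymes and targets. The receptors show 2 higher and 2 lower of 35, and the ligand enzymes 2 higher and 6 lower of 18.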

How the data were processed

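Poly(A)-selected RNA of 8 LY2 libraries was sequenced, with group and replicate as labelled. The authors deposited 1 normalized signal per gene and library, meaning reads scaled by a library's size factor, for 63677 genes, of which 37222 carry a symbol. The submitters' processing notes list GRCh37, DESeq, DESeq2, HTSeq 0.6.1 and TopHat2 2.0.12. How HTSeq was set and which annotation it read were not given in the labels. Each value was a whole multiple of a step fixed within its library, with 100.0% whole within 0.001 reads, so whole reads were recovered.

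The members and lists were chosen with earlier results of these data known. Normalized values call for a test on a log scale, and limma 3.58.1 (R 4.3.3, trend, robust variances) was fitted to log2(value + 1) of the 19559 genes that reached 10 normalized reads in 4 or more libraries. P-values are two-sided, adjusted over those genes, with no replicate block. Fold changes on this scale understate changes of low genes. The fit was tested on simulated data. Alternatives were scaling by TMM or upper quartile (edgeR 4.0.16), other filters and pseudocounts, a replicate block, length and GC correction, each library left out, and edgeR and DESeq2 1.42.0 on recovered reads. Leaving out shNT replicate 3 and shSRC1 replicate 2 together was added after seeing the data.

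Receptors past the threshold are given library by library, as are NR2F6 and ESR1 among the 6 highest per kilobase. ESRRA, VDR and RARG, also among those 6, are given as mean and SD. Up to 3 called genes of each list are given by adjusted p. Other values were chosen after they were seen. Of 195 list entries 194 were matched by symbol, and some list genes are not reported by name here. GENCODE 29 (GRCh38) gave exon length, gene order, chromosome and overlap by Ensembl identifier, and RefSeq (GRCh38.p14) gave the sequences. Reads carry no molecular identifiers, so floors cover counting error only.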

Additional observations from a re-analysis of the deposited data

Results flagged for a closer look

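Among 12 genes given in full, 24 groups of 4 libraries were screened for a library far from the other 3 (Dixon's 95% criterion), and 2 were found, where chance gives about 1 in 20. ESRRA held 3258 normalized reads in shNT replicate 3, against 4155 to 4291 in the other shNT libraries. NR2C1 held 1598 in shNT replicate 3, against 1458 to 1478 in the others. Both are the same library, in which ESRRA was low and NR2C1 high.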

How the results depend on the processing

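The fall of NCOA1, the rise of NR2F2 and the fall of NR4A1 passed the threshold under all 20 alternatives. The 2 higher receptors became 1 with no filter, 4 with a replicate block, 6 with length and GC correction, 6 with that correction and the replicate block, and 3 with upper-quartile scaling or DESeq2. The 2 lower receptors became 1 with no filter, which tests all 45, and 3 with the replicate block or either length and GC correction. Leaving out each library in turn gave 1 to 2 higher and 1 to 2 lower, and leaving out shNT replicate 3 and shSRC1 replicate 2 together gave 1 and 1. The count over all genes, 4538 in 19559, stayed within 1.5 times under each alternative. As a share of all genes tested it was 23.2%, against 9.9% with no filter and 32.7% with the replicate block. With length and GC correction it was 29.1%, and 31.6% with that correction and the block. Same-numbered libraries had correlations of 0.242, -0.01, 0.128 and 0.144 in their deviations from group means, and a pairing was taken only where each is over 0.1, so the libraries were not treated as paired. Of the 4 shNT libraries, 3 correlated best with their own number, while shNT replicate 2 did so with shSRC1 replicate 4 (0.13). The replicate block called 6398 genes and added NR1D2 (adjusted p = 0.0383), NR1H2 (0.0478) and THRA (0.0285). With it 6 coregulators, 5 ligand enzymes, 4 targets of estrogen-related receptors and 1 vitamin D target were higher, and 4 clock genes lower.

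Among the 12 genes screened above, signs changed in ESRRA, NR2F6 and NCOA2, which all missed the threshold. Leaving out libraries moved ESRRA from -0.040 to 0.092, NR2F6 from -0.110 to 0.082 and NCOA2 from -0.076 to 0.007. ESRRA was at -0.04 without shNT replicate 3, -0.01 without shSRC1 replicate 1 and -0.04 without the pair named above. NR2F6 was at -0.002 with TMM scaling, -0.005 with upper-quartile scaling, -0.11 without shNT replicate 3, -0.07 without shSRC1 replicate 1, -0.11 without the pair, -0.007 in edgeR and -0.005 in DESeq2. NCOA2 was at 0.007 without the pair. The causes were not tested. Depth limits the receptors under about 100 normalized reads.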
